A study of Mus musculus with 5 samples.

Results

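SP100, PML and the TRIM proteins are intrinsic restriction factors, proteins already present in a cell that repress incoming viruses and transposable elements. PML builds nuclear bodies in which SP100 resides, and these bodies, together with the DAXX and ATRX chaperone, coat and silence foreign DNA in the nucleus. TRIM (tripartite motif) proteins are mostly ubiquitin ligases that act in the cytosol on viral capsids or on the adaptors of innate sensing, and many genes of both groups are transcribed in response to type I interferon. The 10 genes described here were taken from a fixed list of symbols, Sp100, Sp110, Sp140, Pml, Trim21, Trim25, Trim30a, Trim30d, Trim34a and Trim14, and all 10 were found among the 32285 genes of the files.

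The data were single-nucleus RNA profiles of sorted brain nuclei from 5 mice, with 1 library per mouse. In 2 mice (R241E) the driver Tmem119-creERT2 was combined with 1 copy of the R241E allele of Cgas, which weakens the hold of nucleosomes on the DNA sensor cGAS, and in 3 mice (WT) the same driver was combined with wild-type Cgas. The allele is switched on by tamoxifen, injected at 8 to 10 weeks of age. Whether the WT mice were injected too is not given in the sources used here. By the study's account the driver is active for the most part in microglia and the macrophages of the brain. The study's results and methods differ on the genotype of the controls, and the sample titles were followed. The allele was made in C57BL/6J zygotes, and the interval between tamoxifen and collection is not given for these libraries in the sources used here. The labels name hippocampus and microglia, the methods name brain tissue, and nuclei negative for the neuronal protein NeuN and the oligodendrocyte-lineage protein Olig2 were sorted to enrich microglia.

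The libraries held 4183709 to 10130667 unique molecular identifiers (UMIs, each marking 1 captured RNA molecule), and 9505 of 9748 nuclei were kept. Nuclei were clustered and named from marker genes. A class name here means nuclei with the markers of that class. The names were rebuilt from the counts, so class sizes can differ from those of the study. Only 5377 nuclei were microglia, by P2ry12, Tmem119, Sall1 and the other markers, although the labels call all of them so. All 7 microglial markers were detected in the microglia of every library, with a summed level of 4523 and 4884 UMIs per 1000000 UMIs of the class (CPM) in R241E and 5461 to 5653 in WT. Most microglia of the WT mice fell into 2 clusters (56.1% and 36.2%), whereas those of the R241E mice fell mostly into 3 others (42.9%, 24.4% and 20.5%). The last of these was led by interferon-inducible genes such as Ifi204 and Oas2. Leaving the 10 genes out of clustering left 100% of microglia with the same name. The names come from marker genes that include none of the 10, so they could hardly change. The clusters within microglia were not compared. Of all barcodes, 13 occurred in more than 1 library.

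In microglia, 9 of the 10 genes were higher in R241E at an adjusted p under 0.05 (edgeR quasi-likelihood test on UMIs summed per library, Benjamini-Hochberg adjustment over 12725 genes), and none was lower. Among all genes tested, 6.04% were called higher and 3.25% lower. The median log2 fold change was 1.30 for the 10 genes and -0.00476 for all genes. All 10 genes had both R241E libraries above all WT libraries, as had 20.3% of all genes. In such sums, fewer expressing cells and less RNA per cell cannot be told apart. The levels below are CPM of the class total, and they compare libraries for 1 gene and not genes with each other, since they are not scaled by length.

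**Figure D1:**
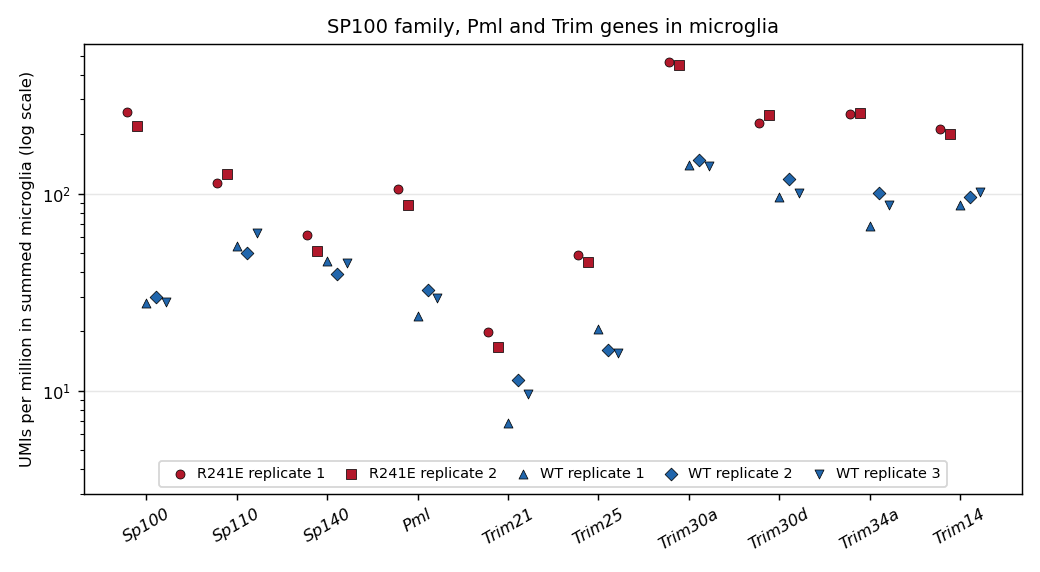
CPM of the 10 genes in summed microglia (log axis), with 1 point per library, red for R241E and blue for WT. For every gene both red points lie above the 3 blue ones, with the widest gap for Sp100 (219 and 258 against 27.9 to 29.8) and the narrowest for Sp140 (51.2 and 61.6 against 39.0 to 45.3).

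Sp100 (ENSMUSG00000026222, chr1:85649948-85709998 in GRCm38.p6) encodes the resident protein of PML bodies, which binds chromatin and represses viral transcription. Its level was 258 and 219 CPM in R241E microglia, while the 3 WT libraries had 27.9, 29.8 and 28.2 CPM. Both R241E libraries were far above a WT group that hardly varied. On the log2 scale it rose by 3.04 (SE 0.12, edgeR adjusted p = 1.47e-10), or 8.25-fold, more than for Stat2 (2.35), the interferon signal transducer, and less than for Isg15 (4.12), an interferon-induced ubiquitin-like modifier. Leaving out any 1 library kept it between 2.90 and 3.15. Sp100 also differed in how many nuclei held it: after each nucleus was thinned to 1000 UMIs, 22.1% and 17.5% of R241E microglia and 2.44%, 2.49% and 2.24% of WT microglia had a Sp100 UMI. Without thinning the shares were 42.5% and 33.6% against 5.72%, 6.73% and 5.38%. Neurons, taken as a class with little of the transcript, had 1.80%, 2.19%, 0.355%, 0% and 2.59% in the same order, at median depths of 2638 to 5326 UMIs against 2061 to 3056 in microglia. Compared without thinning, the microglial share was above the neuronal one in each library.

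The neighbours of Sp100 on chromosome 1 encode related chromatin readers and had smaller log2 changes, a difference between genes that was not tested. Sp110 had 112 and 125 CPM in R241E and 54.2, 49.8 and 63.0 CPM in WT. Its log2 fold change was 1.07 (SE 0.13, edgeR adjusted p = 3.29e-05). Sp140, known in mice as a repressor of the type I interferon response, had 61.6 and 51.2 CPM in R241E and 45.3, 39.0 and 44.4 CPM in WT. The groups did not overlap, yet the difference of 0.41 (SE 0.15) missed the threshold (edgeR adjusted p = 0.101), and it did so under every alternative run, with adjusted p between 0.0789 and 0.739. Sp140 (chr1:85587491-85645040) ends 4907 bases before Sp100 starts and overlaps Sp110 (chr1:85570735-85610850), which lies on the opposite strand, over 23360 bases. The sources used here do not say whether the counting used strand, so reads of the overlap cannot be assigned with certainty to Sp110 or Sp140. The 3 genes also have close relatives in the mouse genome, and reads that match several genes are left out of such counts.

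Pml (ENSMUSG00000036986, chr9:58217179-58249796) encodes the scaffold of the nuclear bodies, itself a TRIM protein. Its level was 106 and 87.2 CPM in R241E microglia, while WT microglia had 23.9, 32.5 and 29.7 CPM. The groups were well apart, and Pml rose by 1.73 on the log2 scale (SE 0.15, edgeR adjusted p = 1.57e-06), or 3.31-fold. Of 30 other genes of PML bodies, the SUMO pathway and their partners, all of which were tested, 2 were called higher and none lower, a share near the 6.04% of all genes called higher, and the median log2 fold change of the 30 was -0.0390. Daxx, the histone chaperone that SP100 and PML bring to viral DNA, rose by 1.17 on the log2 scale (21.0 and 22.8 CPM against 6.06, 11.1 and 10.5 CPM, edgeR adjusted p = 0.00710). Its partner Atrx had a log2 fold change of -0.08 (edgeR adjusted p = 0.684), with CPM of 349 and 361 in R241E and 370.1 to 373 in WT. The other called gene was Isg20, an interferon-induced exonuclease found in these bodies, at 5.03 and 4.84 CPM against 0.692 to 0.900 CPM (2.57 on the log2 scale, edgeR adjusted p = 0.00610). It rested on 23 UMIs in R241E and 8 in WT. Without R241E replicate 1, neither Isg20 (adjusted p = 0.174) nor Daxx (0.0787) was called.

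Trim25 (chr11:88999403-89020294), the ligase that acts on the RNA sensor RIG-I and on the antiviral protein ZAP, had 49.0 and 45.0 CPM in R241E and 20.6, 16.1 and 15.6 CPM in WT. Its log2 fold change was 1.44 (SE 0.18, edgeR adjusted p = 5.23e-05). Trim14 (chr4:46505072-46536150), an adaptor without a RING domain that works at the mitochondrial adaptor MAVS, had 212 and 201 CPM against 87.7, 95.5 and 102 CPM. Its log2 fold change was 1.10 (SE 0.10, edgeR adjusted p = 2.93e-06). Both genes were called whichever library was left out.

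Trim21 (chr7:102557920-102565482), a cytosolic antibody receptor that sends antibody-coated viruses to the proteasome, was the least abundant of these transcripts by UMI count, with 63 and 24 UMIs in R241E microglia against 17, 49 and 32 in WT microglia. At 19.8 and 16.6 CPM it lay above the WT libraries (6.87, 11.3 and 9.60 CPM), and the log2 fold change was 0.94 (SE 0.26, edgeR adjusted p = 0.0291). This call was lost without R241E replicate 1 (adjusted p = 0.352), without WT replicate 1 (0.0837), after thinning nuclei to 1000 UMIs (0.132) and in the DESeq2 Wald test (0.138).

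A list of partners of these TRIM proteins was drawn up with earlier results of these data known, so its counts are a description. Of all genes tested in microglia, 6.04% were called higher and 3.25% lower. Of the 24 listed genes, 5 were called higher and 1 lower in microglia, with a median of 0.04. Those that rose were Ifih1, which encodes the RNA sensor MDA5 (log2 fold change 1.97), Parp9 (1.41) and its partner Dtx3l (0.98), Ddx58, which encodes RIG-I (1.35), and Zc3hav1, which encodes ZAP (0.96). Nlrp3, the inflammasome sensor, was lower, at 55.0 and 44.3 CPM in R241E and 100.3, 71.3 and 78.9 CPM in WT (log2 fold change -0.72, edgeR adjusted p = 0.0103). That call was lost without R241E replicate 2 (adjusted p = 0.0931) and after thinning (0.0714). Mavs stood at 32.7 and 31.1 CPM in R241E and 27.9 to 33.9 CPM in WT, so its groups overlapped (edgeR adjusted p = 0.898). Cgas itself, in which the allele is a point mutation of the protein, had a log2 fold change of 0.24 (edgeR adjusted p = 0.280), with both R241E libraries (83.2 and 87.9 CPM) above all WT libraries (66.7 to 74.4 CPM).

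Trim34a, Trim30a and Trim30d lie in a cluster of 11 Trim genes on chromosome 7 that spans 317 kb, the site of the rodent relatives of the retroviral capsid sensor TRIM5, and 10 of the 11 were in the files. Trim30a (chr7:104409025-104465193), best known as a brake on Toll-like receptor signalling, had 464 and 449.7 CPM in R241E and 139, 148 and 138 CPM in WT. Its log2 fold change was 1.67 (SE 0.09, edgeR adjusted p = 7.75e-09). Trim34a (chr7:104244448-104262244) had 254 and 255 CPM against 68.7, 101 and 87.6 CPM (1.53, SE 0.13, edgeR adjusted p = 9.48e-07), and Trim30d (chr7:104470014-104507853) had 227 and 250.5 CPM against 95.8, 118 and 101 CPM (1.15, SE 0.11, edgeR adjusted p = 4.84e-06). In all 3 genes the lowest R241E library was well above the highest WT library.

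The rise ran through the whole measurable cluster. Of the other 7 genes in the files, 5 were tested and all 5 were called higher: Trim30b (1.72), Trim30c (1.59), Trim12c (0.91), Trim12a (0.83) and Trim5 (0.74). Trim6 and Trim34b were too rare to test, with 6 and 4 UMIs in R241E and 5 and 1 in WT. Because members of this cluster are near copies of each other, reads that match several were left out of the counts, so the split between Trim30a to Trim30d or between Trim12a and Trim12c is uncertain. Across all 62 other TRIM genes, 32 were tested, and 7 were called higher and 1 lower. Of all genes, 6.04% were called higher and 3.25% lower. The median of the 32 was -0.0389, and the 5 cluster genes were among the 7 called higher. The other 2 were Trim42, at 23.2 and 20.1 CPM against 1.38 to 2.40 CPM (3.58 on the log2 scale, edgeR adjusted p = 1.82e-06), and Trim7 (1.35, edgeR adjusted p = 0.0367). Trim47 was lower (-0.56, edgeR adjusted p = 0.0464). Trim7 and Trim47 each lost the call without R241E replicate 1 (adjusted p = 0.524 and 0.451), without WT replicate 1 (0.0781 and 0.148) and without WT replicate 2 (0.142 and 0.0501), and Trim47 also without R241E replicate 2 (0.0522).

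**Figure D2:**
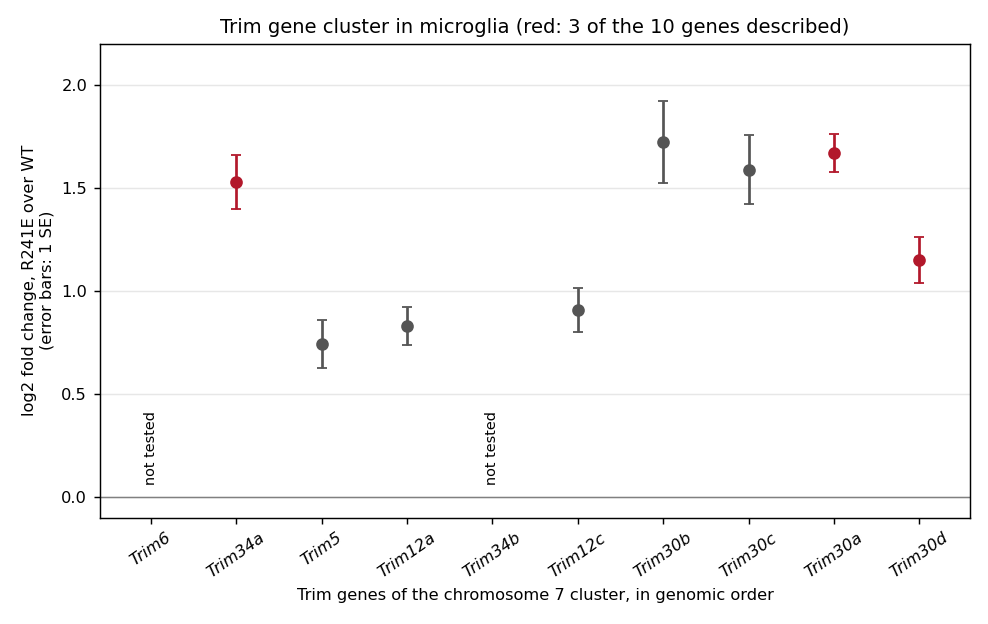
Log2 fold changes (R241E over WT, error bars 1 SE) in microglia for the 10 measured Trim genes of the chromosome 7 cluster, in genomic order, with Trim34a, Trim30a and Trim30d in red. All 8 tested genes lie above 0, between 0.74 (Trim5) and 1.72 (Trim30b), and Trim6 and Trim34b were not tested.

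The start-site windows of these genes, from 250 bases before to 50 bases after the start (RefSeq, GRCm38.p6), were searched on both strands for the interferon-stimulated response element GAAANNGAAA and the interferon-gamma-activated site TTCNNNGAA. A window was given for 9 of the 10 genes, all but Trim14. The response element occurred in 4 of the 9, Trim21, Trim30a, Trim30d and Trim34a, and in a window of 3.99% of all 27025 genes. The activated site occurred in none of the 9 and in 9.55% of all genes. A match is a description of the letters, and the absence of one in Sp100, Sp110, Sp140, Pml and Trim25 says only that this spelling is not in these windows. The 100 bases before the start are shown for Trim30a and Trim30d, on the minus strand at chr7:104465194-104465293 and chr7:104507850-104507949, because they carry the element on the reverse strand in nearly the same surroundings, with its first base 36 and 41 bases before the start. Capitals mark the element.
Trim30a: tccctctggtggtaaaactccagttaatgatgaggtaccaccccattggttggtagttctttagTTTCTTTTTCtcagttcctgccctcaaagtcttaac
Trim30d: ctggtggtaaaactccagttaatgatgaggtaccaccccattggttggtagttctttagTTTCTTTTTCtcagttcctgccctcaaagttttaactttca

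The full windows of this pair were identical at 276 of 295 compared bases (93.6%). In Trim21 and Trim34a the element lay just after the start, at bases 14 to 29 and 11 to 20 counted from it. A second start window of Trim30a also held a match just after its start. Stretches of 30 bases that hold the element are shown for Trim21 (chr7:102565447-102565476, minus strand) and Trim34a (chr7:104244457-104244486, plus strand). Capitals mark the element, and in Trim21 it is a double match that shares bases.
Trim21: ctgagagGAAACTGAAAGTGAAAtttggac
Trim34a: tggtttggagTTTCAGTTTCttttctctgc

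For contrast, the 100 bases before the first start of Sp100 (plus strand, chr1:85649888-85649987), the gene with the largest fold change of the 10, held neither spelling.
Sp100: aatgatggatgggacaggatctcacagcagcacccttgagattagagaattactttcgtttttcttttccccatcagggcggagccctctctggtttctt

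The genes were not confined to microglia. In WT, 9 of the 10 had their highest mean among the 7 tested classes in border-associated macrophages, the macrophages of meninges and vessels, which carry all 7 of their own markers in each library. Trim30d was the exception, with 104.9 ± 11.5 CPM (SD, n = 3) in microglia and 81.0 ± 31.7 CPM (SD, n = 3) in these macrophages, whose ranges overlapped. For Sp100 the WT order was border-associated macrophages (199 ± 119 CPM, SD, n = 3 here and below), fibroblasts (81.7 ± 26.0), microglia (28.6 ± 0.997), mural cells (8.14 ± 7.06), neurons (4.86 ± 7.76), astrocytes (0.651 ± 1.13) and oligodendrocytes (no UMI). The macrophage and fibroblast ranges overlapped, fibroblasts and microglia did not, and microglia lay above all mural values. R241E microglia (238 ± 27.0 CPM, SD, n = 2) thus stood within the range of WT macrophages (81.5 to 320.1 CPM). Pml was flatter, from 165 ± 68.8 CPM in WT macrophages to 21.3 ± 1.78 CPM in astrocytes, and each class overlapped its neighbour in the order.

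T or NK lymphocytes and monocytes or neutrophils, too few in some libraries to be tested, also held these transcripts. Sp100 had 559.7 and 439.8 CPM in R241E lymphocytes against 417, 322 and 325 CPM in WT lymphocytes, the latter from only 3, 4 and 18 UMIs. The cluster named monocytes or neutrophils was led by Cd74, H2-Aa and H2-Eb1, ahead of S100a9 and S100a8. In these nuclei Sp100 stood at 400.0 and 177 CPM in R241E and 382, 267 and 198 CPM in WT, so the groups overlapped. Endothelial nuclei, 60 in all, had 232 and 449 CPM against 78.4, 362 and 172 CPM. Pml had 43 and 10 UMIs in R241E lymphocytes and none in WT lymphocytes, whose 3 libraries summed to few UMIs. The R241E level as counted was 3.47-fold a floor of 3 UMIs over the WT group. That value allows for counting error in WT only and is without a test.

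**Figure D3:**
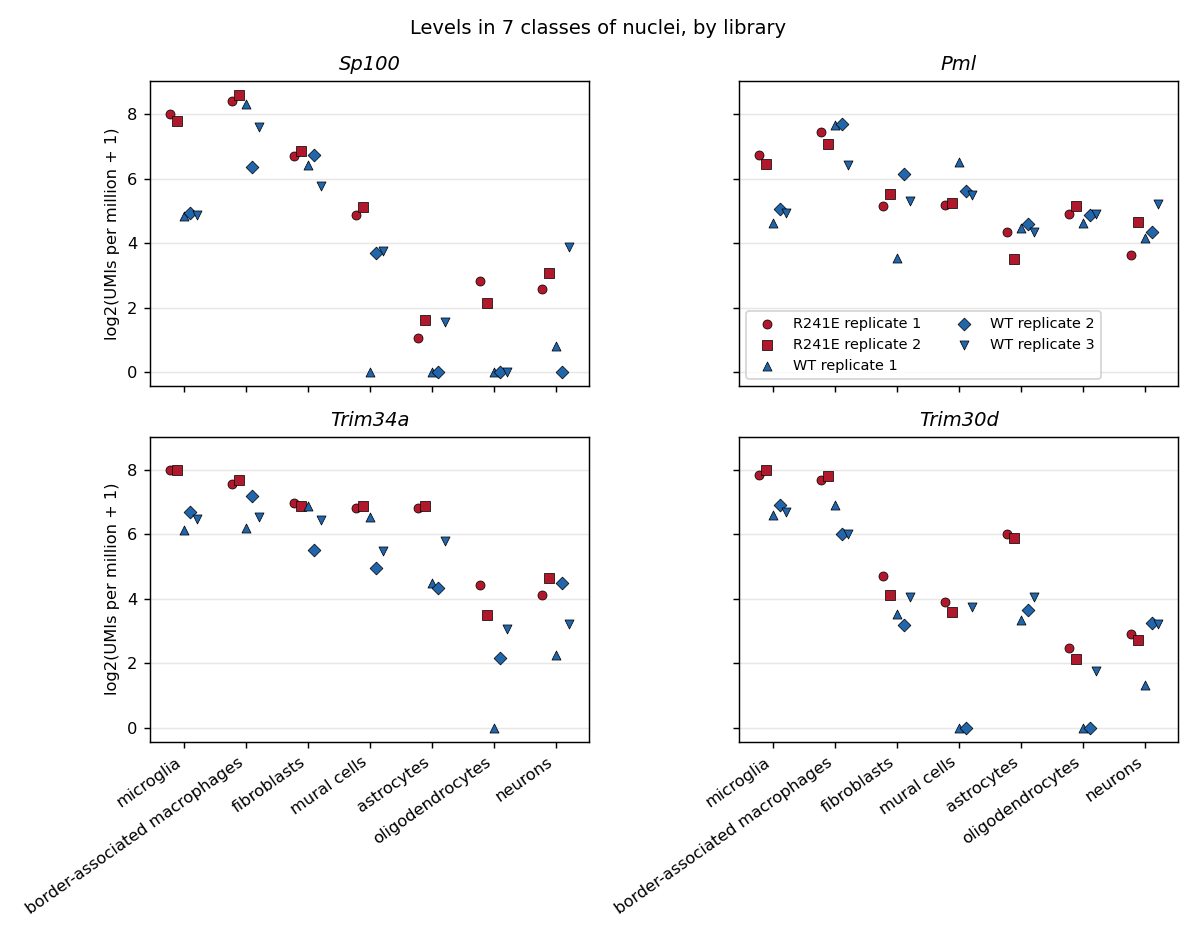
Levels of Sp100, Pml, Trim34a and Trim30d, as log2(CPM + 1), in 7 classes with 1 point per library. For Sp100 the R241E microglia (219 and 258 CPM) lie far above the WT microglia (27.9 to 29.8 CPM), and for Trim34a and Trim30d the groups are also apart in astrocytes (111 and 116 against 19.2 to 54.7 CPM, and 63.8 and 58.2 against 9.15 to 15.6 CPM).

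In border-associated macrophages, 9 of the 10 genes passed the filter on low counts and 2 were called higher, where 0.811% of 3947 genes were called higher and 0.127% lower. Trim30a had 426 and 448 CPM in R241E and 261, 219 and 166 CPM in WT (log2 fold change 1.03, SE 0.23, edgeR adjusted p = 0.0203), and Trim30d had 205 and 220.2 CPM against 118, 62.7 and 62.8 CPM (1.40, SE 0.31, edgeR adjusted p = 0.0217). The groups did not overlap for either gene. Both calls were lost without R241E replicate 1 (adjusted p = 0.106 for each), without WT replicate 2 (0.171 and 0.235) and without WT replicate 3 (0.127 for each). Sp100 had 339.9 and 385 CPM in R241E and 320.1, 81.5 and 194 CPM in WT (log2 fold change 0.87, edgeR adjusted p = 0.281). Its groups did not overlap, as for 11.6% of genes in that class, and without WT replicate 1, the highest control, the value was 1.37 with an adjusted p of 0.0422. Pml had 175 and 134 CPM against 203, 207 and 85.6 CPM, so R241E lay inside the WT range (log2 fold change -0.0178, edgeR adjusted p = 0.996). Its sign changed under several alternatives. Trim34a (0.92), Sp110 (0.74), Trim14 (0.73), Trim25 (0.38) and Sp140 (0.28) were not called. Trim21, with 12 UMIs in R241E and 13 in WT, was not tested.

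In astrocytes, 4 genes passed the filter and 2 were called higher, where 0.292% of 7876 genes were called higher, 0.152% lower and 10.3% were higher without overlap. The split of astrocytes between their 2 clusters varied by library and did not fully separate the genotypes. In R241E, 1 cluster held 173 of 178 and 82 of 127 astrocytes. In WT it held 38 of 64, 17 of 58 and 26 of 144, and the other cluster held the rest. Both were led by Gpc5, and the part of this split in the values below was not tested. Trim30d had 63.8 and 58.2 CPM in R241E and 9.15, 11.5 and 15.6 CPM in WT, with no overlap (log2 fold change 2.31, SE 0.37, edgeR adjusted p = 0.0217). Trim34a had 111 and 116 CPM against 21.4, 19.2 and 54.7 CPM (1.74, SE 0.34, edgeR adjusted p = 0.0409). Trim30a had 59.5 and 39.5 CPM against 3.05, 15.4 and 17.6 CPM but was not called (2.05, edgeR adjusted p = 0.0863). Pml had 19.5 and 10.4 CPM against 21.4, 23.1 and 19.5 CPM, so both R241E libraries were below all WT libraries, the first only marginally (-0.35, edgeR adjusted p = 0.925). The Trim30d call was lost without R241E replicate 1 (adjusted p = 0.313), WT replicate 2 (0.197) or WT replicate 3 (0.0975), and the Trim34a call without R241E replicate 1 (0.284), WT replicate 1 (0.0536) or WT replicate 2 (0.321).

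Astrocytes differed from microglia in which genes of the list they held. The R241E astrocytes had 103 and 56 UMIs of Trim34a but 1 and 1 of Sp100, whereas microglia of the same libraries had 808 and 368 of Trim34a and 820 and 317 of Sp100. Ependymal-like nuclei of R241E replicate 1, the library with most of this class, showed the same split with 106 UMIs of Trim34a, 40 of Trim30d and none of Sp100. The split was present in WT too. Astrocytes there had 7, 5 and 28 UMIs of Trim34a and 0, 0 and 1 of Sp100, and ependymal-like nuclei had 5, 6 and 6 and none. Trim34a overlapped between genotypes in ependymal-like nuclei (162 and 66.4 CPM in R241E against 56.8, 110 and 178 CPM in WT). The summed level of the 7 microglial markers in astrocytes was 131 and 227 CPM in R241E and 226 to 287 CPM in WT. The 7 macrophage markers summed to 28.1 and 10.4 CPM in R241E and 15.4 to 25.4 CPM in WT astrocytes, with 3 or 4 of them at 0 in each library.

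In the other 4 classes no gene of the list was called. Fibroblasts and neurons, too, were split between clusters in shares that varied by library. The fibroblast cluster led by Slc47a1 held 104 of 167 and 57 of 151 R241E nuclei. In WT it held 9 of 30, 17 of 67 and 38 of 94. The neuronal cluster led by Nxph1 and Gm38505 held 2 of 111 and 5 of 137 R241E nuclei. In WT it held 147 of 282, 14 of 102 and 22 of 116. Of all genes, 0.0112% were called higher in neurons, 0.267% in oligodendrocytes and 0.00% in mural cells and fibroblasts, and 0.00%, 0.0178%, 0.00% and 0.0172% were called lower in neurons, oligodendrocytes, mural cells and fibroblasts. Higher without overlap were 13.6% of genes in neurons, 9.09% in oligodendrocytes, 9.22% in mural cells and 8.52% in fibroblasts. Trim34a, the only gene tested in all of these but oligodendrocytes, had log2 fold changes of 0.98 in neurons, 1.22 in mural cells and 0.71 in fibroblasts (edgeR adjusted p = 0.793, 0.999 and 0.701). In mural cells its groups did not overlap (110.2 and 115 CPM against 90.9, 29.9 and 43.7 CPM). Sp100 in fibroblasts had 103 and 115 CPM (R241E) against 85.3, 106 and 54.1 CPM (WT), with overlap (log2 fold change 0.48, edgeR adjusted p = 0.870). No gene of the list passed the filter in oligodendrocytes, where Sp100 had 8 and 1 UMIs in R241E but no UMI in WT. The R241E level as counted was 1.92-fold a floor of 3 UMIs over the WT group. That value allows for counting error in WT only and was not tested. In simulated counts with 2-fold changes, the microglia comparison recovered 75.0% of changed genes and the other classes 4.50% (neurons) to 55.5% (oligodendrocytes), so a 2-fold change of a single gene was often not detectable outside microglia.

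Whether the R241E effect itself differed between microglia and another class was tested with the class-by-genotype term, with library as a block, for 10 genes in 6 classes. Of these 60 differences, 6 were called, all of them Sp100 or Pml and all smaller outside microglia. For Sp100 the change was smaller by 2.11 on the log2 scale in border-associated macrophages (SE 0.28, edgeR adjusted p = 6.64e-11) and by 2.48 in fibroblasts (SE 0.36, edgeR adjusted p = 5.36e-09). For Pml it was smaller by 1.75 in border-associated macrophages (SE 0.34, edgeR adjusted p = 1.0e-04), by 2.10 in astrocytes (SE 0.51, edgeR adjusted p = 0.0103), by 1.78 in fibroblasts (SE 0.46, edgeR adjusted p = 0.0174) and by 2.25 in mural cells (SE 0.53, edgeR adjusted p = 0.0132). Among all genes, the effect was called smaller than in microglia for 7 of 14005 genes in neurons, for 0.488% in oligodendrocytes, 0.234% in mural cells, 0.664% in astrocytes, 0.656% in fibroblasts and 0.504% in macrophages. It was called larger for 0.232% in oligodendrocytes, 0.347% in astrocytes, 0.367% in fibroblasts and 0.238% in macrophages. The 3 Pml differences in astrocytes, fibroblasts and mural cells were each lost when 1 of several libraries was left out, and that in macrophages without R241E replicate 1 (adjusted p = 0.0507). After thinning, none of the 4 Pml differences was called (adjusted p = 0.349 in macrophages). Both Sp100 differences were called whichever library was left out, although that in fibroblasts was not after thinning (adjusted p = 0.491). Pml in mural cells rested on 15 and 10 UMIs in R241E and 7, 8 and 7 in WT. The part of the fibroblast clusters in the fibroblast differences was not tested.

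For the Trim genes no difference between classes was called. The astrocyte effect exceeded that in microglia by 1.15 for Trim30d (SE 0.43, edgeR adjusted p = 0.274) and by 0.19 for Trim34a (SE 0.33, edgeR adjusted p = 0.957). The macrophage effect was smaller by 0.62 for Trim30a (SE 0.24, edgeR adjusted p = 0.409) and larger by 0.28 for Trim30d (SE 0.33, edgeR adjusted p = 0.980). In macrophages the difference was also negative for Trim25 (-1.01), Trim21 (-0.98), Trim34a (-0.60) and Trim14 (-0.35). For Trim34a it was negative in fibroblasts (-0.69), neurons (-0.58) and mural cells (-0.18) too, and positive in oligodendrocytes (0.71). Leaving out pairs with a genotype at 3 UMIs or fewer, 38 of 45 differences over the whole list were negative, called ones included. These differences share mice and microglial values, and all 10 genes were higher in R241E microglia. No share of negative differences over all genes was taken, so this count is a description only. In simulated counts this test recovered at most 6.50% of 2-fold differences, so an uncalled difference does not show that classes responded alike.

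**Figure D4:**
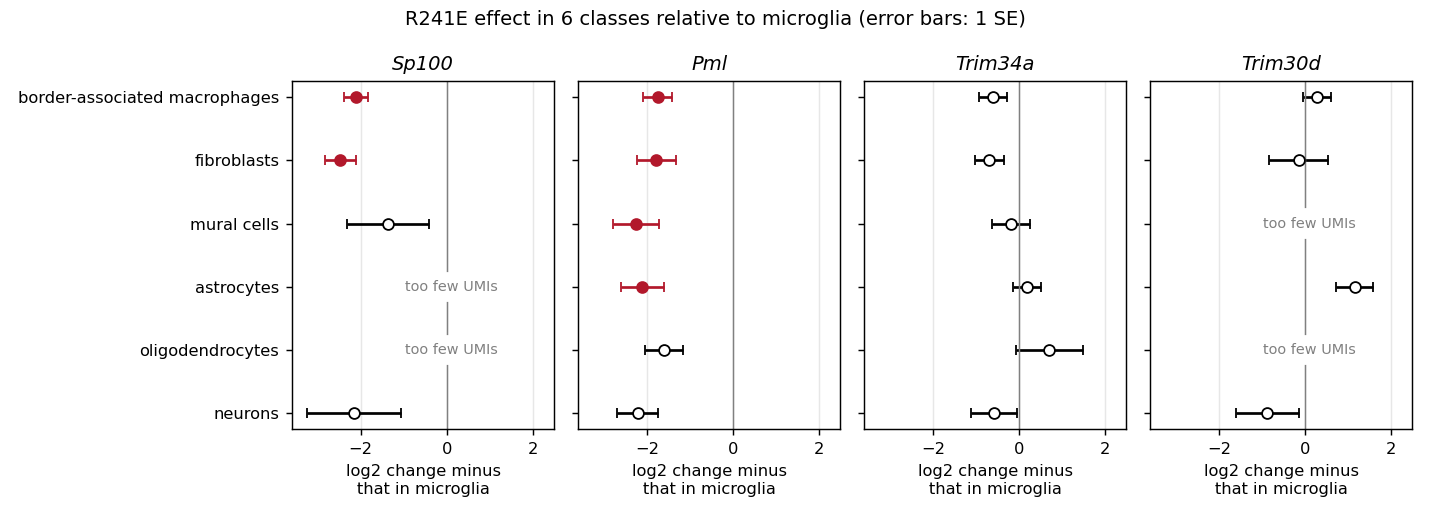
Differences of the R241E effect (log2 change in a class minus that in microglia, error bars 1 SE) for 4 genes in 6 classes, with called differences in red. The called points for Sp100 (-2.11 and -2.48) and Pml (-1.75 to -2.25) lie left of 0, while those of Trim34a and Trim30d lie around it. Pairs in which a genotype had 3 or fewer UMIs are marked and not drawn.

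To see where in the microglial population the genes rose, each microglial nucleus was thinned to 1000 UMIs and grouped by its UMIs of the 27 interferon genes of the study's list other than Sp100, a list the study drew from earlier publications. Nuclei with at least 3 such UMIs made up 40.0% and 31.3% of R241E microglia and 1.44%, 2.42% and 2.60% of WT microglia. In that range Sp100 reached 4.66 and 3.59 UMIs per 10000 in R241E, while the 13, 35 and 36 such WT nuclei had 1.54, 1.43 and 1.94. Nuclei with no interferon-list UMI also differed, with 1.24 and 1.03 Sp100 UMIs per 10000 in R241E and 0.217, 0.201 and 0.185 in WT. The 10 genes summed gave 11.6 and 9.60 UMIs per 10000 in such R241E nuclei and 4.98, 6.36 and 5.60 in such WT nuclei, so the R241E libraries stayed above the WT libraries even there. In nuclei with at least 3 they gave 26.5 and 26.9 (R241E) against 13.1, 17.4 and 13.6 (WT). With a range of at least 4 the groups overlapped, at 30.5 and 31.0 against 22.9, 35 and 26.2. The WT values there came from 7, 8 and 13 nuclei. Sp100 overlapped in that range as well, at 5.82 and 4.02 against 2.86, 1.25 and 4.62. At a depth of 500 UMIs, nuclei with at least 3 gave 31.8 and 37.2 against 27.5, 34 and 34.5 for the summed genes, again with overlap. The ranges cut through a continuum, since 298, 130, 63, 117 and 107 nuclei of the 5 libraries had 2 or 3 such UMIs, and at this depth a nucleus without a UMI may still express the genes. These values are descriptions, as nuclei of 1 mouse are not replicates.

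**Figure D5:**
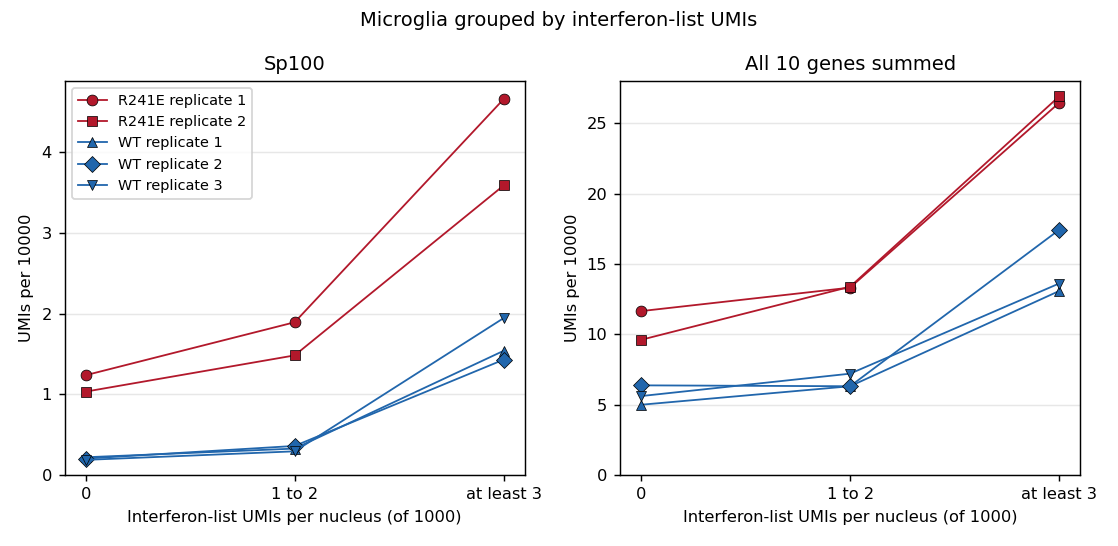
UMIs per 10000 of Sp100 (left) and of the 10 genes summed (right) in microglia thinned to 1000 UMIs, by the number of interferon-list UMIs in the nucleus, with 1 line per library. Both R241E lines lie above the 3 WT lines in every range drawn. For the summed genes they go from 11.6 and 9.60 at 0 to 26.5 and 26.9 at 3 or more. With the top range set at 4 or more, the groups overlapped.

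The same ranges were read for single genes, and differences between genes were not tested. In the R241E libraries, Trim30a went from 2.71 and 2.46 UMIs per 10000 in nuclei with none to 7.22 and 7.88 in nuclei with at least 3, and Pml from 0.529 and 0.159 to 1.38 and 1.41. Sp140 went from 0.471 and 0.635 to 0.977 and 0.962, and Trim21 from 0.294 and 0.159 to 0.125 and 0.256. The Trim21 values rest on 2 to 5 UMIs each and the lowest Pml value on 2. The Sp140 values in nuclei with no interferon-list UMI rest on 8 each. More different genes of the list were detected per nucleus in R241E, where each gene was also higher by itself. Whether the count per nucleus exceeds what the single-gene rises give was not tested. After thinning, 1.48 and 1.38 different genes of the 10 were detected per R241E nucleus and 0.511, 0.605 and 0.560 per WT nucleus. The share of nuclei with at least 2 of them was 41.4% and 38.6% against 8.53%, 12.3% and 10.8%.

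The genes whose levels followed 3 of the list most closely over 35 points (7 classes in 5 libraries, among 16048 genes) were found by Pearson correlation of log2(CPM + 10). For Sp100 they were Clec2d (r = 0.946), Parp14 (0.911) and Raet1e (0.910), for Sp140 they were Il15 (0.919), Sp110 (0.914) and Raet1e (0.909), and for Trim25 they were Gbp7 (0.892), Bst2 (0.885) and Parp14 (0.875). The points share libraries and mice, so the values are given as a description.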

How the data were processed

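Nuclei of 5 mice (2 R241E, 3 WT, grouped by sample title) were profiled with the 10x Genomics Chromium chemistry. The deposited values were raw UMI counts for each nucleus, produced by the authors with Cell Ranger 7.0.0 on mm10; whether intronic reads or read strand entered them is not given in the sources used here. Nuclei were kept within the study's limits (from 200 to below 4500 genes, below 10000 UMIs, mitochondrial share below 5%). They were clustered in scanpy 1.11.5 (3000 variable genes, 30 components, 20 neighbours, Leiden resolution 1) without integration. Clusters were named by the marker list with the largest average log2 excess above the median cluster (at least 2), of which 3 markers had to be seen in 10% of nuclei, a scoring rule set with the clusters in view; it named all 25 clusters. Doublets were treated by the upper limits. Scrublet called 42 nuclei (0.442%), too few for a working caller, and the 156 highest scores were left out in an alternative.

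Counts were summed per library and class, in the 7 classes that had 20 or more nuclei per library, and tested with edgeR 4.0.16 (TMM, filterByExpr, quasi-likelihood test, R 4.3.3), called at an adjusted p under 0.05. The class-by-genotype term used library as a block. CPM divide the counts by the class total. Alternatives were DESeq2 1.42.0, limma 3.58.1 voom, no filter, a replicate block, each library left out, lifted limits, thinning and clustering without the 10 genes. Each library is 1 mouse, no batch or date is given, and replicates varied beyond sampling noise (chi-square over degrees of freedom, 2.19 to 4.00). The tests were tried on simulated counts with 200 genes changed 2-fold. Precision follows depth: total counts per library ran from 4183709 to 10130667, and floors cover counting error of the WT group only. The treatment text on H151 and DMSO is assigned to no sample and was not used. RefSeq tables (GRCm38.p6) matched all 10 genes by symbol. Named genes were the 10, called genes of 3 further lists (up to 8 each, by smallest p), 5 fixed partners, and the 3 genes most alike in level to each of 3. The genes and lists were chosen with earlier results of these data known.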

Additional observations from a re-analysis of the deposited data

Results flagged for a closer look

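These 6 results drew attention because the R241E effect differed between 2 classes of nuclei by a test of the difference itself. For Sp100 the change in border-associated macrophages minus that in microglia was -2.11 on the log2 scale, and in fibroblasts it was -2.48. For Pml the difference was -1.75 in border-associated macrophages, -2.10 in astrocytes, -1.78 in fibroblasts and -2.25 in mural cells. The mean WT level of Sp100 in macrophages and fibroblasts was above that in microglia (199 and 81.7 against 28.6 CPM), and that of Pml was 165, 60.8, 39.5 and 21.3 CPM in macrophages, mural cells, fibroblasts and astrocytes against 28.7 CPM in microglia. The summed 7 macrophage markers in microglia were 92.7 and 141 CPM in R241E and 210.3 to 238 CPM in WT, lower in R241E. Their part in these differences was not tested.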

How the results depend on the processing

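The count of 9 genes called in microglia stayed between 8 and 9 under every alternative run, and Trim21 was the gene lost each time. The 4 calls in other classes (Trim30d and Trim34a in astrocytes, Trim30a and Trim30d in macrophages) became 0 with the DESeq2 Wald test, 2 with limma-voom, 1 with nuclei thinned to 1000 UMIs and 0 to 5 with 1 library left out. The 2 called PML body genes became 4 with the replicate block, 0 after thinning and 0 to 3 with 1 library left out. The 6 called differences between classes became 1 after thinning and 2 to 5 with 1 library left out. With 1 library left out, other TRIM genes gave 6 to 8 calls and TRIM partners 5 to 6. The rise of the 10 summed genes from nuclei with no interferon-list UMI to those with at least 3 (16.1 UMIs per 10000, mean of R241E) was 22.8 at a depth of 500 UMIs, 20.1 with a range of at least 4, and 14.8 to 17.3 with 1 R241E library left out. At a depth of 500 UMIs and with a range of at least 4, the R241E and WT libraries overlapped in the top range for the summed genes. For each of these the cause was not tested, beyond the fewer UMIs or libraries by construction.

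The sign of uncalled Pml changes turned in several settings: with 1 library left out Pml ranged from -0.97 to 0.050 in neurons, from -0.39 to 0.43 in fibroblasts (0.043 without R241E replicate 1, 0.43 without WT replicate 2) and from -0.34 to 0.19 in macrophages, where it was 0.099 with limma-voom and 0.034 with no filter on low counts. The Pml difference between fibroblasts and microglia was 0.22 after thinning. Replicate numbers did not pair the mice (correlation of same-numbered deviations 0.0995 and -0.0180); as a block they left 9 genes called in microglia and 4 in other classes.

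All genes called in microglia numbered 1183, and 2106 with the replicate block, 765 after thinning, 536 without R241E replicate 1 and 769 without WT replicate 2. In other classes such counts moved more: astrocytes had 35, and 23 by the Wald test, 0 by limma-voom, 264 with no filter, 178 with the block, 4 after thinning and 1 to 108 with 1 library left out. Macrophages had 37, and 5 by the Wald test, 70 with no filter, 66 with the block, 19 after thinning and as few as 6 without WT replicate 2. Over the alternatives, neurons (1) ranged from 0 to 516, oligodendrocytes (16) from 2 to 72, fibroblasts (1) from 0 to 100 and mural cells (0) from 0 to 3. Of the 10 genes, 9 passed the filter in macrophages, 4 in astrocytes and fibroblasts, 2 in neurons, 1 in mural cells and 0 in oligodendrocytes, so most were too rare to test outside microglia and macrophages.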
